A study of Danio rerio with 12 samples.

Results

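The genes described here are the sarcomere and muscle genes measured in adult zebrafish eyes. They were taken by name alone from the deposited table, as every row whose gene name opens with the symbol of a striated muscle myosin, myosin light chain, myosin-binding protein, troponin, tropomyosin, skeletal or cardiac actin, muscle α-actinin, titin, nebulin, myomesin, myozenin, desmin, calsequestrin, muscle creatine kinase, the muscle calcium pump atp2a1, tmod4, cav3 or ldb3. This gave 96 rows of 25432, with 93 distinct names. The names to match and the fibre classes were chosen with earlier results of these data known. RNA was sequenced from 12 eyes, 6 from akr7a3+/+ and 6 from akr7a3-/- adults, whose ages the labels do not give. The mutants come from CRISPR/Cas9 and have an insertion in exon 1 of akr7a3, a gene for an aldo-keto reductase that clears reactive aldehydes such as acrolein. By the series' design text both genotypes were studied in Tg(fli1:EGFP) zebrafish, which carry a green fluorescent reporter of the endothelium. The mutation is in the whole animal and no cell type is targeted. The eyes are named here by their genotype and the number in their label, which is 1, 2, 3, 4, 6 and 7 for akr7a3+/+ and 1, 4, 5, 7, 8 and 9 for akr7a3-/-. Nothing in the labels says which eyes came from separate fish, so p-values measure the spread between these eyes.

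Striated muscle contracts when myosin motors of the thick filament pull on actin in the thin filament within the sarcomere, the repeating unit of the fibre. Calcium released from the sarcoplasmic reticulum binds troponin C, and troponin and tropomyosin then uncover the myosin sites on actin. Z-discs of α-actinin anchor the thin filaments, the M-line of myomesin ties the thick filaments together, and titin and nebulin run along them. Fast fibres, which contract quickly and tire early, and slow fibres, which hold tension, use separate genes for most of these parts. The extraocular muscles that turn the eye are attached to the sclera and mix several fibre types. The retina has no striated fibres. The label of each sample says only that the tissue is eye, and how much muscle stayed on each eye is not given in the sources used here. None of the genes in the name rule marks extraocular muscle alone, so which muscle their RNA came from was not tested.

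Values are FPKM, the fragments on a gene divided by its length and by the fragments mapped in that eye, which allow levels of genes to be set side by side. The total reads behind them, worked out from the steps that single reads make in the table, ran from 21194609 to 35016388 per eye. akr7a3 itself ranged from 1.35 to 2.65 FPKM with a median of 2.15 in the akr7a3+/+ eyes and from 0.267 to 0.414 FPKM with a median of 0.354 in the akr7a3-/- eyes, so that the genotypes did not meet (log2 fold change −1.56). Genes were tested with limma on log2(FPKM + 0.5), and a gene is called changed at a Benjamini-Hochberg adjusted p under 0.05 over all 18473 genes tested. A gene entered the test if 6 or more of the 12 eyes had 0.5 FPKM or above. A log2 fold change is the akr7a3-/- minus the akr7a3+/+ mean on that scale, where the added 0.5 shrinks the change of weakly expressed genes.

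Striated muscle transcripts were lower in the akr7a3-/- eyes, in fast, slow and shared sarcomere genes. Of the 7 smooth muscle and non-muscle genes that the name rule also took, 0 were called lower, beside 5.77% of all genes tested. For 7 genes, 0 is near that share. Outside the name rule, 1 of 9 tested smooth muscle and pericyte markers was called lower (11.1%, beside 5.77% of all genes tested). That marker list leaves out 3 members, which are desma, called lower, myh11b, called higher, and myh11a, not called. Here desma is counted with the shared striated genes. Of the 96 rows, 78 passed the filter, and 29 of the 78 were called changed. Of these, 27 were lower and 2 were higher in the akr7a3-/- eyes. The share called was 37.2%, beside 11.5% of all genes tested, and the share called lower was 34.6%, beside 5.77%. The share called higher among all genes was 5.78%. Of the 71 tested genes of the striated classes, 0 were called higher by limma or by voom on the recovered reads. At an unadjusted p under 0.05 from limma, 0 were higher and 52 were lower. The share of all genes at that unadjusted p was not counted. Unadjusted counts here and below therefore have no background beside them. The median log2 fold change of the 78 was −0.55, beside −0.008 over all genes tested. The eyes of the genotypes did not overlap in 19 of the 78, beside 6.62% of all genes tested. In 18 the akr7a3-/- eyes were all below, beside 3.06%, and in 1, myh11b, they were all above, beside 3.55%.

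The slow fibre genes myoz2a and smyhc1, both called lower, passed the filter only through their akr7a3+/+ eyes. They therefore had to differ, and without them 27 of 76 members were called, 25 of them lower, and in 16 of the 76 the akr7a3-/- eyes were all below. The 18 rows that were not tested lay at low levels, and 14 of them had a lower mean in the akr7a3-/- eyes. Of these rows, 17 had a mean over all eyes of at most 0.634 FPKM. The remaining one, the fast troponin I gene tnni2a.1, had 23.9 FPKM in the akr7a3+/+ eye 1 and at most 0.920 FPKM in any other eye. Since the RNA is from bulk eye tissue, fewer muscle cells and less muscle RNA per cell cannot be told apart in any of these values. FPKM is also relative to all fragments of an eye. Less muscle left on the eye, or more RNA from other tissue, therefore cannot be told apart from these either.

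**Figure D1:**
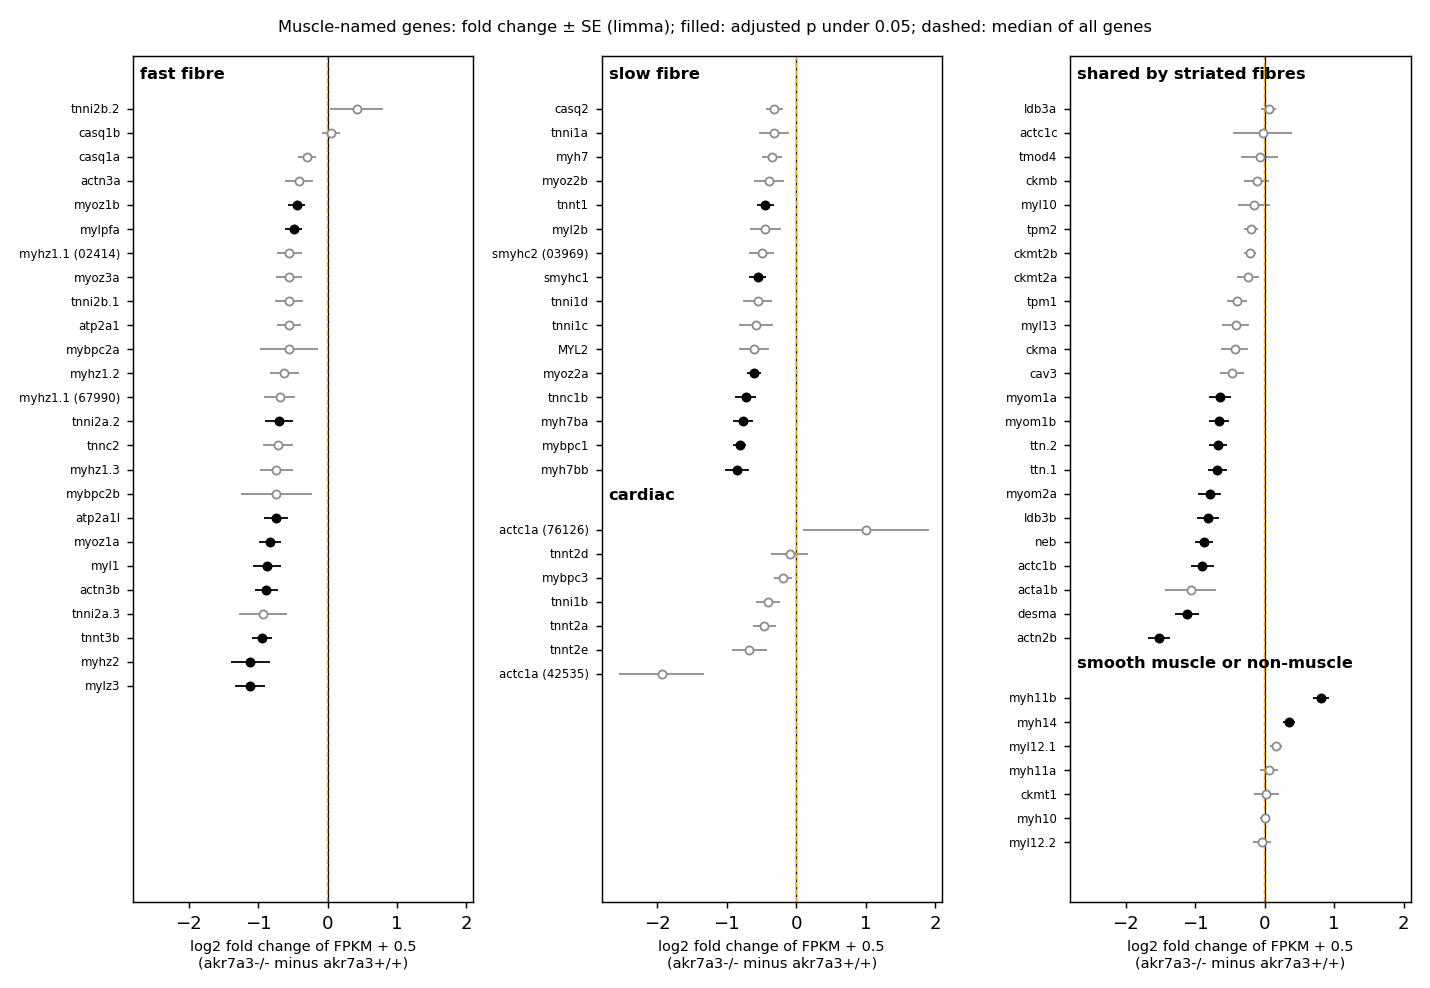
Log2 fold change of FPKM + 0.5 (akr7a3-/- minus akr7a3+/+) with its standard error for the 78 tested genes, grouped by class. Filled points passed an adjusted p under 0.05, and the dashed line is the median of all genes tested at −0.008. All 27 filled points among the striated muscle classes lie below 0, and both filled points among the smooth muscle and non-muscle genes lie above.

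In fast fibre genes, 10 of 25 tested were lower in the akr7a3-/- eyes and 0 were higher (40.0% called, beside 11.5% of all genes tested). The median log2 fold change was −0.69. Of the 15 that were not called, 13 also had a fold change below 0. The most abundant was mylpfa, the regulatory myosin light chain of fast muscle, which ranged from 182 to 339 FPKM with a median of 259 in the akr7a3+/+ eyes and from 167 to 198 FPKM with a median of 184 in the akr7a3-/- eyes. Its means were 260.1 ± 51.6 and 183 ± 11.6 FPKM (SD, n = 6 per genotype), a log2 fold change of −0.49 (SE 0.12, adjusted p = 0.0208). The akr7a3+/+ eye 6, at 182 FPKM, lay among the akr7a3-/- eyes and the other 5 akr7a3+/+ eyes lay above all of them.

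The essential light chains of fast myosin had larger log2 fold changes than mylpfa, and the difference between the genes was not tested. mylz3 had means of 51.7 ± 15.7 and 23.5 ± 6.90 FPKM (SD, n = 6 per genotype), with a log2 fold change of −1.12 (SE 0.21, adjusted p = 0.00463). Its ranges met only at the akr7a3+/+ eye 6 and the akr7a3-/- eye 7, with 32.6 and 35.8 FPKM. The related myl1 ranged from 22.9 to 56.4 FPKM with a median of 31.0 in the akr7a3+/+ eyes and from 15.2 to 21.7 FPKM with a median of 16.7 in the akr7a3-/- eyes, so that the genotypes did not overlap (p = 0.00216 in a two-sided exact permutation test, which cannot go lower with 6 eyes a side). For this gene the log2 fold change was −0.87 (SE 0.20, adjusted p = 0.0133).

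The fast myosin heavy chain myhz2, a motor gene, was also lower, at 34.2 ± 20.2 and 14.3 ± 3.89 FPKM (SD, n = 6 per genotype) and a log2 fold change of −1.11 (SE 0.29, adjusted p = 0.0249). The akr7a3+/+ eye 3 had 73.7 FPKM and the other akr7a3+/+ eyes 17.1 to 31.8 FPKM. The akr7a3-/- eyes ran from 10.7 to 19.9 FPKM and overlapped the akr7a3+/+ range. Without the akr7a3+/+ eye 3 the gene was still called, at −0.86 (limma adjusted p = 0.0186). The call was lost when the akr7a3-/- eyes 5, 8 or 9 were left out one at a time, with adjusted p-values from limma of 0.0506 to 0.0581. The 4 rows of the neighbouring genes myhz1.1, myhz1.2 and myhz1.3 had log2 fold changes of −0.74 to −0.55 and were not called. These heavy chain genes are close copies of each other, and how reads that match several copies were counted is not given in the sources used here, so the split between them is uncertain.

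In the fast troponin complex, tnnt3b, the subunit that binds tropomyosin, separated the genotypes. It ranged from 71.5 to 147 FPKM with a median of 101 in the akr7a3+/+ eyes and from 43.7 to 57.1 FPKM with a median of 50.1 in the akr7a3-/- eyes, with a log2 fold change of −0.94 (SE 0.15, adjusted p = 0.00148). The inhibitory subunit tnni2a.2 was also lower, with means of 33.2 ± 10.1 and 20.03 ± 4.62 FPKM (SD, n = 6 per genotype) and a log2 fold change of −0.70 (limma adjusted p = 0.0396). The inhibitory subunits tnni2b.1 and tnni2a.3 were not called, with log2 fold changes of −0.55 and −0.93 (limma adjusted p = 0.104 for each). The calcium-binding subunit tnnc2 was not called, at 38.4 ± 17.0 and 21.7 ± 2.33 FPKM (SD, n = 6 per genotype) and a log2 fold change of −0.71 (limma adjusted p = 0.0557). Its akr7a3+/+ eyes spread from 24.2 to 66.2 FPKM, with eyes 1 and 3 highest, and its akr7a3-/- eyes from 18.2 to 24.6 FPKM. One fast troponin gene went the other way without being called, tnni2b.2, at 2.97 ± 2.25 and 3.36 ± 0.604 FPKM (SD, n = 6 per genotype) and a log2 fold change of 0.42 (limma adjusted p = 0.534). It varied from 0.456 to 6.74 FPKM among the akr7a3+/+ eyes, and its log2 fold change was 0.10 without the akr7a3+/+ eye 3, the lowest, and 0.69 without the akr7a3+/+ eye 7, the highest.

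At the fast Z-disc, the α-actinin gene actn3b ranged from 6.24 to 14.1 FPKM with a median of 7.999 in the akr7a3+/+ eyes and from 3.86 to 5.35 FPKM with a median of 4.83 in the akr7a3-/- eyes, without overlap, and its log2 fold change was −0.88 (SE 0.17, adjusted p = 0.00492). Its copy actn3a overlapped between the genotypes and was not called (log2 fold change −0.41 at an adjusted p of 0.224). The myozenin myoz1a, which binds α-actinin and calcineurin, had means of 3.32 ± 0.709 and 1.66 ± 0.396 FPKM (SD, n = 6 per genotype), a log2 fold change of −0.83 (SE 0.15, adjusted p = 0.00426) and no overlap. A second myozenin, myoz1b, was lower by a smaller amount (log2 fold change −0.44 at an adjusted p of 0.0336).

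Of 4 genes that handle calcium in fast fibres, 1 was called, beside 11.5% of all genes tested. atp2a1, the pump that returns calcium to the sarcoplasmic reticulum, was the second most abundant fast gene and ranged from 143 to 295 FPKM with a median of 214 in the akr7a3+/+ eyes and from 99.4 to 198 FPKM with a median of 146 in the akr7a3-/- eyes. Its log2 fold change of −0.55 (SE 0.18, adjusted p = 0.0617) did not pass the threshold. It passed without the akr7a3+/+ eye 6 (−0.66, adjusted p = 0.0232) or without the akr7a3-/- eye 7 (−0.65, adjusted p = 0.0331). Its relative atp2a1l was called lower, at 39.8 ± 11.3 and 22.9 ± 2.62 FPKM (SD, n = 6 per genotype) and a log2 fold change of −0.74 (limma adjusted p = 0.0137). The calcium store proteins of fast fibres were not called, with log2 fold changes of −0.29 for casq1a and 0.049 for casq1b.

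In slow fibre genes, 7 of 16 tested were lower and 0 were higher (43.8% called, beside 11.5% of all genes tested). The median log2 fold change was −0.55, and all 16 had a fold change below 0. Without myoz2a and smyhc1, 5 of 14 were called (35.7%). The number was 4 of the 14 then tested without the akr7a3+/+ eye 2, the akr7a3+/+ eye 3 or the akr7a3+/+ eye 7. The slow myosin-binding protein mybpc1, which lies along the thick filament, parted the genotypes. It ranged from 9.08 to 13.3 FPKM with a median of 10.5 in the akr7a3+/+ eyes and from 4.88 to 6.93 FPKM with a median of 5.83 in the akr7a3-/- eyes, and its means were 10.8 ± 1.43 and 5.90 ± 0.671 FPKM (SD, n = 6 per genotype). This is a log2 fold change of −0.81 (SE 0.095, adjusted p = 1.61e-04), and the genotypes did not overlap.

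The slow troponins differed in how clearly they parted. tnnc1b, a troponin C placed here with the slow genes, ranged from 19.7 to 29.4 FPKM with a median of 25.6 in the akr7a3+/+ eyes and from 10.4 to 18.7 FPKM with a median of 14.8 in the akr7a3-/- eyes, with no overlap and a log2 fold change of −0.73 (SE 0.15, adjusted p = 0.00667). tnnt1, the slow troponin T and the most abundant slow gene, had means of 29.0 ± 4.69 and 21.2 ± 3.19 FPKM (SD, n = 6 per genotype) and a log2 fold change of −0.44 (SE 0.12, adjusted p = 0.0293). Its ranges overlapped, and leaving out single eyes cost it the call in 7 of 12 fits. The tested slow troponin I genes tnni1a, tnni1c and tnni1d had log2 fold changes of −0.58 to −0.32 and were not called.

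The slow-type myosin heavy chains myh7ba and myh7bb were both lower. myh7bb ranged from 1.90 to 4.31 FPKM with a median of 2.80 in the akr7a3+/+ eyes and from 1.07 to 2.13 FPKM with a median of 1.32 in the akr7a3-/- eyes, with a log2 fold change of −0.85 (SE 0.18, adjusted p = 0.00771). The akr7a3-/- eye 5 was above the akr7a3+/+ eye 6, and the other eyes of the genotypes did not cross. myh7ba was at 4.25 ± 1.06 and 2.26 ± 0.336 FPKM (SD, n = 6 per genotype), without overlap (log2 fold change −0.76 at an adjusted p of 0.00504). myh7 itself, at 3.82 ± 0.806 and 2.87 ± 0.544 FPKM (SD, n = 6 per genotype), was not called (log2 fold change −0.35 at an adjusted p of 0.140), and neither was myl2b, a regulatory light chain with 10.2 ± 4.96 and 6.81 ± 0.572 FPKM (SD, n = 6 per genotype) and a log2 fold change of −0.44 (limma adjusted p = 0.225). For myl2b the akr7a3+/+ eye 3 stood at 19.6 FPKM and the rest of that genotype at no more than 11.2 FPKM, and without that eye the log2 fold change was −0.24.

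The slow myosin heavy chains of the smyhc family were at low levels. smyhc1 had means of 0.675 ± 0.117 and 0.305 ± 0.115 FPKM (SD, n = 6 per genotype) and was called lower (log2 fold change −0.55 at an adjusted p of 0.0119), and smyhc3, at 0.427 ± 0.0956 and 0.210 ± 0.0631 FPKM (SD, n = 6 per genotype), did not reach the filter. In both, the akr7a3-/- eyes all lay below the akr7a3+/+ eyes. For smyhc1 this had to be so, since it passed the filter only through its akr7a3+/+ eyes, and its call adds no support. smyhc2 has 2 rows and did not part the genotypes. Its higher row, the most abundant of the family, was at 1.39 ± 0.285 and 0.880 ± 0.424 FPKM (SD, n = 6 per genotype) and was not called (log2 fold change −0.49 at an adjusted p of 0.101), and the other, at 0.342 ± 0.343 and 0.340 ± 0.392 FPKM (SD, n = 6 per genotype), did not reach the filter. The rows of smyhc1, smyhc2 and smyhc3 are close copies, and their values carry the same uncertainty as those of the fast heavy chains.

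**Figure D2:**
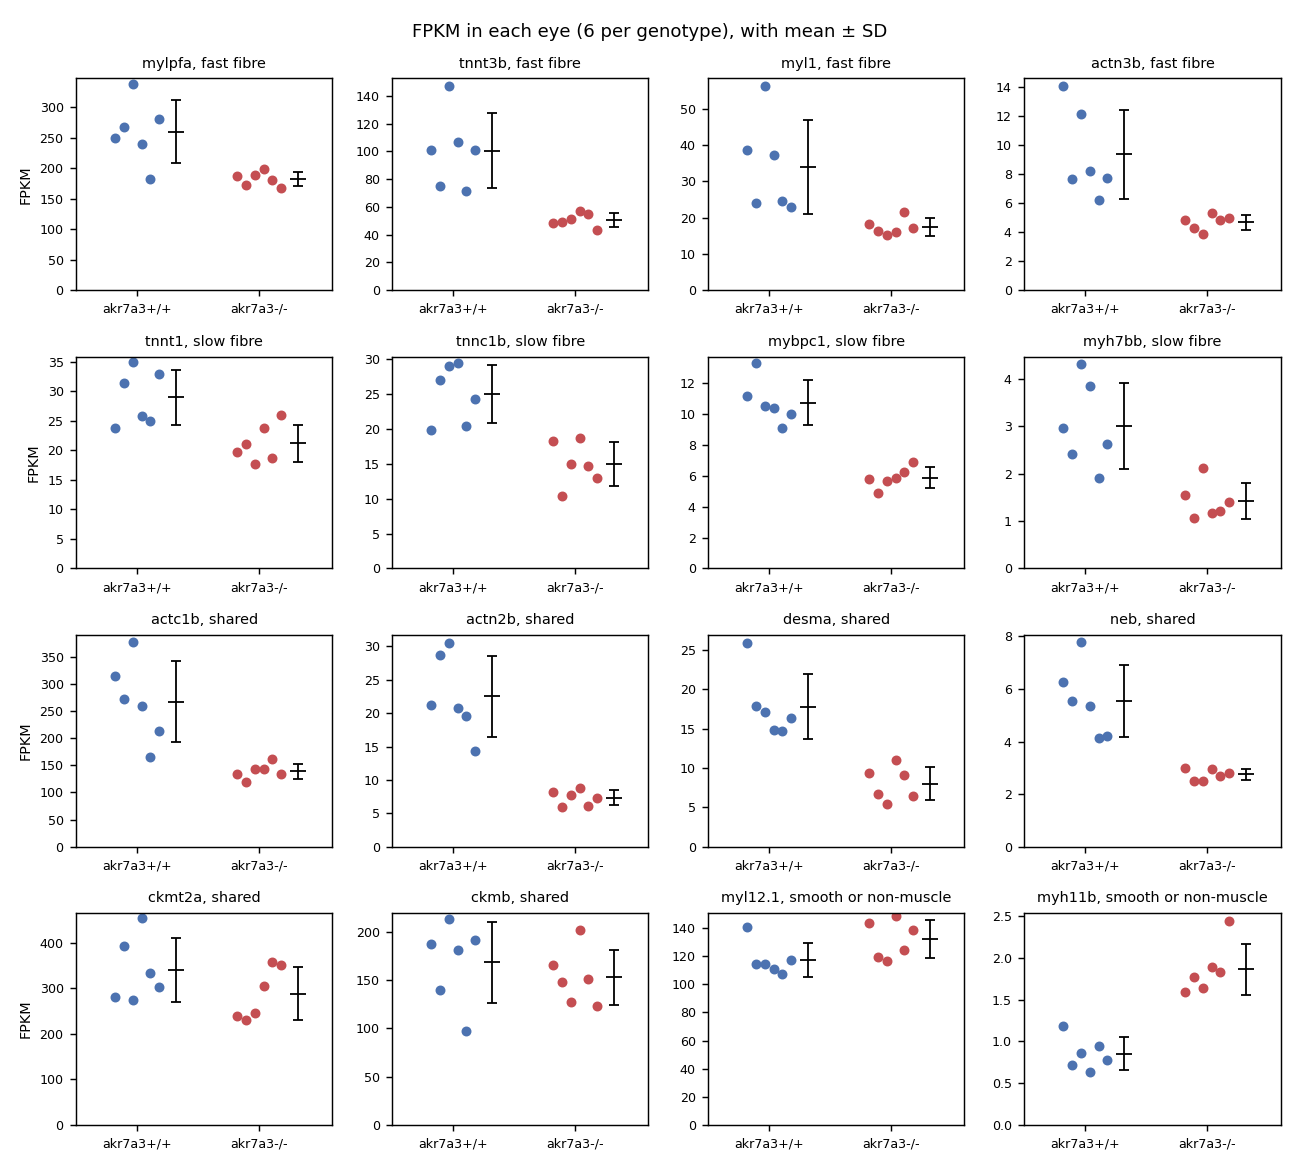
FPKM of 16 genes in each of the 12 eyes, with the mean and SD of the 6 eyes of each genotype. Rows hold fast, slow, shared striated, and creatine kinase with smooth or non-muscle genes. The 16 were picked from the genes named with full values, which include the largest called changes. The genotypes do not overlap for tnnt3b, myl1, actn3b, tnnc1b, mybpc1, actc1b, actn2b, desma, neb and, in the opposite direction, myh11b. Over all 78 tested members, 18 had no overlap with akr7a3-/- lower and 1 with akr7a3-/- higher, beside 3.06% and 3.55% of all genes tested.

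Set side by side, the fast and slow classes were both lower in the akr7a3-/- eyes, and no test of the difference between the classes was made. The fast rows summed to 647.7 to 1328 FPKM in the akr7a3+/+ eyes and 514 to 669.9 FPKM in the akr7a3-/- eyes. The mean sums were 948 ± 220.1 and 583 ± 52.5 FPKM (SD, n = 6 per genotype), so that the akr7a3-/- mean was 61.6% of the akr7a3+/+ mean. The fast sums crossed only at the akr7a3+/+ eye 6 and the akr7a3-/- eye 7. The slow rows summed to 92.8 to 143 FPKM and to 66.8 to 90.9 FPKM, with means of 116 ± 17.6 and 76.7 ± 9.68 FPKM (SD, n = 6 per genotype), or 66.1%. The slow sums did not overlap, although the akr7a3+/+ eye 6 and the akr7a3-/- eye 7 lay close together.

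For each 100 FPKM of fast transcripts an eye held 12.5 ± 1.69 FPKM of slow transcripts in akr7a3+/+ and 13.2 ± 1.71 FPKM in akr7a3-/- (SD, n = 6 per genotype). These values ran from 10.3 to 14.3 and from 11.5 to 16.4, and the means lay closer together than the spread among eyes of one genotype. The highest was the akr7a3-/- eye 9, which had the lowest fast sum of all eyes. Fast and slow sums were both highest in the akr7a3+/+ eye 3, and in the akr7a3+/+ group both were lowest in eye 6. The sums and their ratio lean on a few abundant genes. In the akr7a3+/+ eyes mylpfa and atp2a1 had means of 260 and 215 FPKM within the fast mean of 948. Likewise tnnt1 and tnnc1b had 29.0 and 24.9 FPKM within the slow mean of 116.

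**Figure D3:**
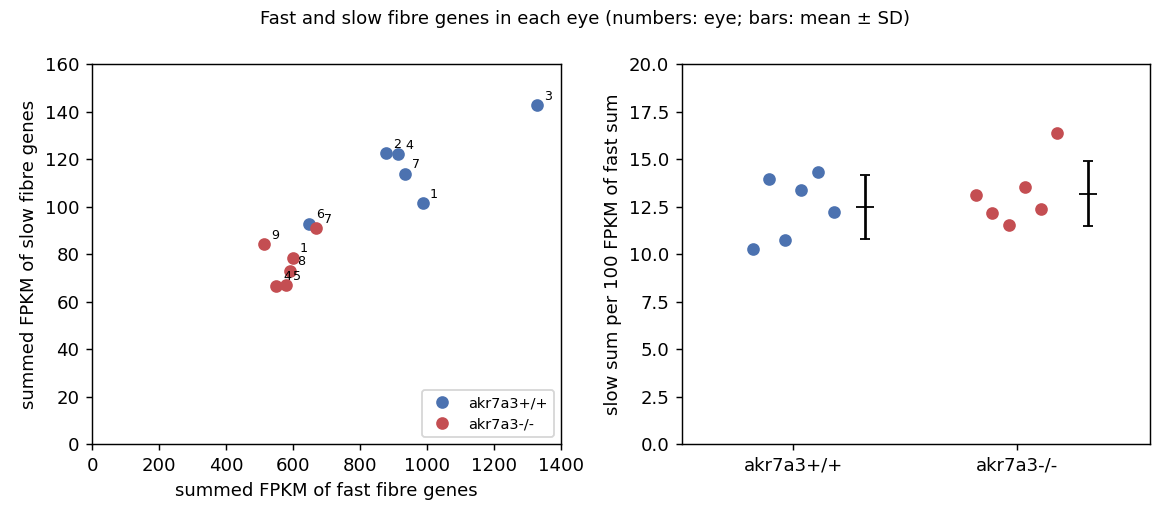
Left, the summed FPKM of the slow genes against that of the fast genes in each eye, numbered as in the labels. Right, the slow sum for each 100 FPKM of the fast sum, with the mean and SD. The akr7a3-/- eyes sit at 514 to 669.9 FPKM of fast and 66.8 to 90.9 FPKM of slow transcripts, while the ratio covers 10.3 to 16.4 over both genotypes.

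Among the genes shared by striated fibres, 10 of 23 tested were lower and 0 were higher (43.5% called, beside 11.5% of all genes tested). The median log2 fold change was −0.47. In 9 of the 23 the akr7a3-/- eyes were all below, beside 3.06% of all genes tested. The largest called change among all members was that of actn2b, an α-actinin of the Z-disc. It ranged from 14.4 to 30.5 FPKM with a median of 20.9 in the akr7a3+/+ eyes and from 6.01 to 8.82 FPKM with a median of 7.47 in the akr7a3-/- eyes, and the akr7a3-/- mean was 32.6% of the akr7a3+/+ mean. The log2 fold change was −1.52 (SE 0.16, adjusted p = 9.23e-05), and the lowest akr7a3+/+ eye, eye 7, was still well above the akr7a3-/- eyes.

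desma, the intermediate filament that links neighbouring Z-discs, ranged from 14.7 to 25.9 FPKM with a median of 16.7 in the akr7a3+/+ eyes and from 5.46 to 11.01 FPKM with a median of 7.93 in the akr7a3-/- eyes. With a log2 fold change of −1.11 (SE 0.17, adjusted p = 0.00128), the genotypes did not overlap, although the akr7a3+/+ eye 1 stood above the rest of its group. Desmin is also found in smooth muscle and pericytes. ldb3b, a Z-disc protein that binds α-actinin, had means of 11.1 ± 3.33 and 5.94 ± 0.813 FPKM (SD, n = 6 per genotype), no overlap and a log2 fold change of −0.81 (SE 0.16, adjusted p = 0.00617). Its copy ldb3a was not lower, at 3.32 ± 0.651 and 3.44 ± 0.362 FPKM (SD, n = 6 per genotype), with a log2 fold change of 0.056 (limma adjusted p = 0.805).

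Of the thin filament, actc1b, the most abundant actin of the list, ranged from 165 to 378 FPKM with a median of 266 in the akr7a3+/+ eyes and from 119 to 161 FPKM with a median of 138 in the akr7a3-/- eyes. Its akr7a3-/- mean was 52.1% of the akr7a3+/+ mean, with a log2 fold change of −0.90 (SE 0.17, adjusted p = 0.00411). The skeletal actin acta1b had a larger fold change, −1.06 (limma adjusted p = 0.0828), that was not called, and its akr7a3+/+ eyes ran from 41.1 to 231 FPKM with eyes 1 and 3 highest. neb, the nebulin gene that runs along the thin filament, ranged from 4.14 to 7.79 FPKM with a median of 5.44 in the akr7a3+/+ eyes and from 2.49 to 3.01 FPKM with a median of 2.76 in the akr7a3-/- eyes, with a log2 fold change of −0.87 (SE 0.13, adjusted p = 9.47e-04). Both tropomyosins were lower in the mean by less, −0.40 for tpm1 and −0.20 for tpm2, and neither was called.

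The long proteins that span the sarcomere were lower as well. The titin genes ttn.1 and ttn.2, which lie side by side on the same chromosome, had log2 fold changes of −0.68 (limma adjusted p = 0.00687) and −0.67 (limma adjusted p = 0.00527), both without overlap. Their FPKM values were low, with akr7a3+/+ means of 1.83 and 2.26, but each rested on at least 1589 reads per eye because the genes are long. At the M-line, myom2a had means of 2.26 ± 0.742 and 1.06 ± 0.170 FPKM (SD, n = 6 per genotype), a log2 fold change of −0.79 (SE 0.16, adjusted p = 0.00696) and no overlap. myom1a and myom1b had log2 fold changes of −0.64 and −0.66 and were called lower too.

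The creatine kinases, which regenerate ATP from phosphocreatine, were among the most abundant genes of the list. Of the 4 forms ckma, ckmb, ckmt2a and ckmt2b, 0 were called by limma or by voom on the recovered reads. By limma 11.5% of all genes tested were called, and for 4 genes 0 is near that share. At an unadjusted p under 0.05 from limma there were 2, both lower. ckmt2a, the mitochondrial form of striated muscle, ranged from 274 to 454 FPKM with a median of 318 in the akr7a3+/+ eyes and from 229.7 to 358 FPKM with a median of 275 in the akr7a3-/- eyes. Its log2 fold change of −0.24 (SE 0.16, adjusted p = 0.365) was smaller than the spread among eyes, and without the akr7a3+/+ eye 4 it was −0.15. The cytosolic ckmb was at 168 ± 42.2 and 153 ± 28.6 FPKM (SD, n = 6 per genotype), with a log2 fold change of −0.11 (SE 0.18, adjusted p = 0.748) that ran from −0.26 to −0.036 with single eyes left out. ckma and ckmt2b had log2 fold changes of −0.43 (limma adjusted p = 0.171) and −0.21 (limma adjusted p = 0.142). The ubiquitous mitochondrial form ckmt1, placed here with the non-muscle genes, was at 14.1 ± 5.24 and 13.8 ± 1.51 FPKM (SD, n = 6 per genotype) and was not called (log2 fold change 0.026 at an adjusted p of 0.947). A p that misses the threshold does not show that these genes were equal between the genotypes. Photoreceptors are also known to hold creatine kinase, and the share of these reads that comes from muscle was not measured.

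**Figure D4:**
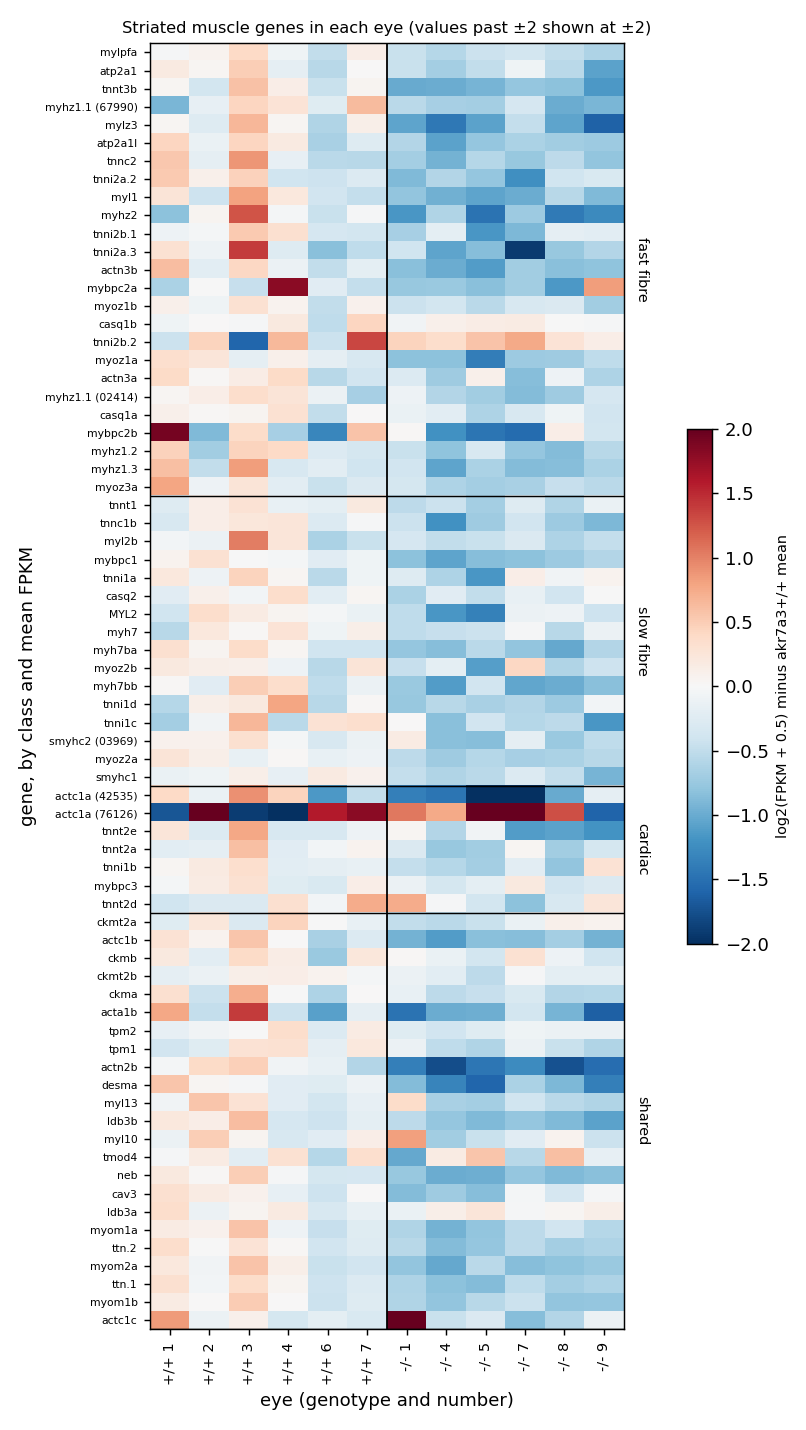
Difference of log2(FPKM + 0.5) from the akr7a3+/+ mean of each gene in the 12 eyes, for the 71 tested genes of the striated muscle classes, ordered by class and mean FPKM. Blue is lower and red is higher, and values past ±2 are drawn at ±2. Most rows are blue across the akr7a3-/- eyes, and the akr7a3+/+ eyes differ among themselves, with eye 3 the highest of its group in 35 rows and eye 6 the lowest in 40.

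Single eyes stood high or low over many of these genes. Among the 71 tested striated genes, the akr7a3+/+ eye 3 was the highest of its group in 35 and the akr7a3+/+ eye 6 the lowest in 40. Among the akr7a3-/- eyes, eye 7 was the highest in 26, while eyes 5 and 4 were the lowest in 18 and 17. Without the akr7a3+/+ eye 3, 24 of 75 tested members were called, beside 1697 of all 18333 genes tested. All 24 are among the 29. Without the akr7a3+/+ eye 6, 33 of 75 tested members were called, beside 2032 of all 18345 genes tested.

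The genes placed in the cardiac class by symbol, a sorting that leaves myh7 and myh7l with the slow genes, were mostly at low levels. Of 16 rows, 7 were tested and 0 were called by limma or by voom, beside 11.5% of all genes tested called by limma. For 7 genes, 0 is near that share. At an unadjusted p under 0.05 from limma 4 were lower, and the median log2 fold change was −0.41. The mean summed FPKM of the cardiac rows in the akr7a3-/- eyes was 64.9% of the akr7a3+/+ mean. The atrial myosin gene myh6 had means of 0.274 ± 0.0635 and 0.225 ± 0.0708 FPKM (SD, n = 6 per genotype), and the cardiac troponin C gene tnnc1a had reads in 3 of the 12 eyes, at no more than 0.0407 FPKM. The name rule also took tnni3k, a kinase that binds troponin I and is no sarcomere part, at 0.4925 ± 0.148 and 0.274 ± 0.0661 FPKM (SD, n = 6 per genotype). The troponin T gene tnnt2a was at 3.69 ± 1.05 and 2.55 ± 0.687 FPKM (SD, n = 6 per genotype) and was not called (log2 fold change −0.46 at an adjusted p of 0.102).

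The highest values of the cardiac class were those of actc1a, a name carried by 2 rows of the table. The row ENSDARG00000042535 had 12.7, 8.66, 18.4, 13.2, 4.01 and 6.64 FPKM in the akr7a3+/+ eyes and 3.40, 3.13, 0.0527, 0.425, 4.498 and 8.33 FPKM in the akr7a3-/- eyes, in the order of their numbers. The row ENSDARG00000076126 had 0.141, 9.22, 0.0662, 0.0284, 5.82 and 6.82 FPKM and then 3.88, 3.05, 8.26, 11.3, 4.61 and 0.195 FPKM. In several eyes one of the rows was near 0 where the other was high, in both genotypes. Their log2 fold changes were −1.94 (limma adjusted p = 0.0604) and 1.01 (limma adjusted p = 0.523), and neither was called. With single eyes left out, the first ran from −2.29 to −1.49. It was called without the akr7a3+/+ eye 6 (limma adjusted p = 0.0495) or the akr7a3-/- eye 9 (limma adjusted p = 0.0307). The second ran from 0.61 to 1.53 and was not called in any of these fits. Summed, they gave 9.84 to 18.4 FPKM in the akr7a3+/+ eyes and 6.18 to 11.7 FPKM in the akr7a3-/- eyes, with means of 14.3 ± 3.28 and 8.51 ± 1.87 FPKM (SD, n = 6 per genotype). The sum overlapped between the genotypes, and it varied less among eyes of one genotype than either row did.

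**Figure D5:**
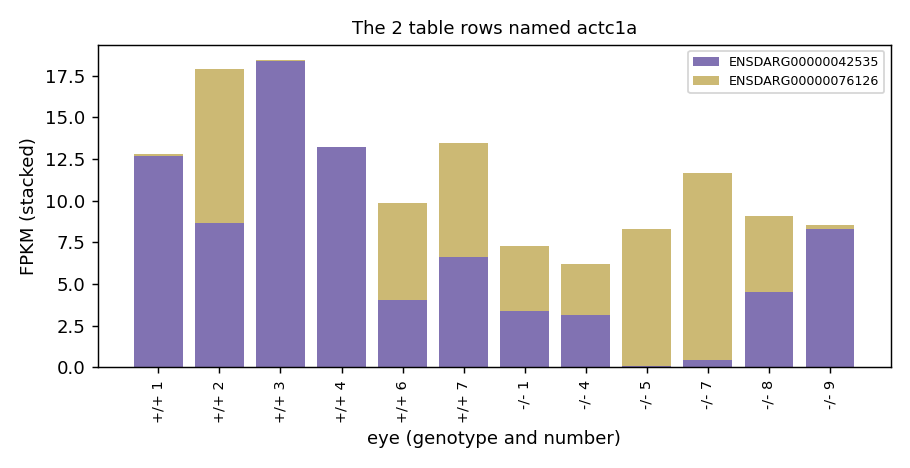
FPKM of the rows that carry the name actc1a, stacked for each of the 12 eyes. The share of each row changes from eye to eye within both genotypes, from nearly all of one to nearly all of the other, and the stacked height runs from 6.18 to 18.4 FPKM.

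The name rule also took 7 genes of smooth muscle and non-muscle cells, and no test of the difference between them and the striated genes was made. Of the 7, 2 were higher in the akr7a3-/- eyes, where 5.78% of all genes tested were called higher. By limma, by voom or at an unadjusted p under 0.05, 0 were lower. By limma 5.77% of all genes tested were called lower, and for 7 genes 0 is near that share. The median log2 fold change of the 7 was 0.064. myh11b, one of the zebrafish copies of the smooth muscle myosin heavy chain, ranged from 0.630 to 1.18 FPKM with a median of 0.818 in the akr7a3+/+ eyes and from 1.597 to 2.45 FPKM with a median of 1.80 in the akr7a3-/- eyes. Its log2 fold change was 0.81 (SE 0.12, adjusted p = 7.63e-04), without overlap, and the akr7a3-/- mean was 219% of the akr7a3+/+ mean. Its copy myh11a was at 3.98 ± 0.753 and 4.18 ± 0.843 FPKM (SD, n = 6 per genotype) and was not called (log2 fold change 0.064 at an adjusted p of 0.814). The non-muscle myosin myh14 rose by a small amount, from 7.64 ± 1.17 to 9.80 ± 0.684 FPKM (SD, n = 6 per genotype), with a log2 fold change of 0.35 (limma adjusted p = 0.0248). It lost the call without the akr7a3+/+ eyes 2 or 7 or the akr7a3-/- eyes 4 or 7, left out one at a time, and with a block on shared replicate numbers (adjusted p of 0.0508 to 0.0533), which leaves 1 gene called higher. myh11b was called in all 19 alternatives.

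The light chains myl12.1 and myl12.2, which serve non-muscle and smooth muscle myosin, were not called. myl12.1 ranged from 107 to 141 FPKM with a median of 114 in the akr7a3+/+ eyes and from 116 to 149 FPKM with a median of 132 in the akr7a3-/- eyes, with a log2 fold change of 0.17 (limma adjusted p = 0.235). myl12.2 had means of 35.3 ± 5.24 and 34.6 ± 5.85 FPKM (SD, n = 6 per genotype) with a log2 fold change of −0.033 (limma adjusted p = 0.905), and its sign turned without the akr7a3+/+ eye 7 or the akr7a3-/- eye 9. The sum of the 7 genes was 202 to 230.4 FPKM in the akr7a3+/+ eyes and 215 to 243 FPKM in the akr7a3-/- eyes.

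Genes of excitation, calcium release and the neuromuscular junction lie outside the name rule. Of 28 tested, 6 were lower and 0 were higher (21.4% called, beside 11.5% of all genes tested), with a median log2 fold change of −0.31. The gene lists here and below were chosen with earlier results of these data known. ryr1a, the calcium release channel of skeletal muscle, ranged from 2.49 to 3.83 FPKM with a median of 3.40 in the akr7a3+/+ eyes and from 1.69 to 2.17 FPKM with a median of 1.86 in the akr7a3-/- eyes, without overlap, and its log2 fold change was −0.65 (SE 0.099, adjusted p = 0.00108). cacna1sa and cacnb1, subunits of the voltage sensor that opens this channel, had log2 fold changes of −0.58 (limma adjusted p = 0.00462) and −0.47 (limma adjusted p = 0.0294). jph1a, a junctophilin that holds the membranes of the junction together, had a log2 fold change of −0.58 (limma adjusted p = 0.0111), and srl, a calcium-binding protein of the reticulum, one of −0.40 (limma adjusted p = 0.0154). The sixth was chrnb1, a subunit of the acetylcholine receptor, with a log2 fold change of −0.38 (limma adjusted p = 0.0430). The most abundant genes of the list, hrc and tmem38a, were not called and had log2 fold changes of −0.66 (limma adjusted p = 0.0524) and −0.14 (limma adjusted p = 0.617).

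Of the myogenic regulators, 4 of 17 tested were lower and 0 were higher (23.5% called, beside 11.5% of all genes tested), with a median of −0.34. myod1, the transcription factor that commits cells to muscle, ranged from 1.84 to 2.42 FPKM with a median of 1.98 in the akr7a3+/+ eyes and from 0.953 to 1.55 FPKM with a median of 1.05 in the akr7a3-/- eyes, with no overlap and a log2 fold change of −0.60 (SE 0.11, adjusted p = 0.00408). mef2cb, a transcription factor of muscle and other tissues, had a log2 fold change of −0.40 (limma adjusted p = 0.00167). smyd1a and smyd1b, which help to assemble myosin into filaments, had log2 fold changes of −0.53 (limma adjusted p = 0.0209) and −0.71 (limma adjusted p = 0.0257). In each of these lists 1 gene was higher at an unadjusted p under 0.05 and 0 were called higher by voom. The most abundant genes, mef2d and mef2aa, which many cell types express, were not called, with log2 fold changes of 0.14 and 0.20.

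Of other muscle genes outside the name rule, 16 of 38 tested were lower and 1 was higher (44.7% called, beside 11.5% of all genes tested). The median was −0.42. The myosin heavy chain myha was at 11.79 ± 2.77 and 4.502 ± 1.4997 FPKM (SD, n = 6 per genotype), with no overlap and a log2 fold change of −1.33 (SE 0.21, adjusted p = 0.00142). The parvalbumins pvalb3 and pvalb2, which buffer calcium in fast fibres, had log2 fold changes of −1.31 (limma adjusted p = 0.00927) and −0.99 (limma adjusted p = 0.0419). smtnl1, a smoothelin-like gene of muscle, had a log2 fold change of −1.10 (limma adjusted p = 0.0358). pygmb, which breaks down muscle glycogen, fell from 83.1 ± 11.03 to 49.99 ± 6.35 FPKM (SD, n = 6 per genotype) without overlap, with a log2 fold change of −0.73 (limma adjusted p = 9.87e-04). mb, the myoglobin gene, was the most abundant of the list and was not called, at 246 ± 116 and 212 ± 48.5 FPKM (SD, n = 6 per genotype) and a log2 fold change of −0.14 (limma adjusted p = 0.787).

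One gene of that list rose. lmod2b, a leiomodin that lengthens thin filaments, ranged from 3.16 to 5.08 FPKM with a median of 3.88 in the akr7a3+/+ eyes and from 4.57 to 12.9 FPKM with a median of 9.72 in the akr7a3-/- eyes. Its log2 fold change was 1.04 (SE 0.20, adjusted p = 0.00521), opposite to that of the other called genes of the list, and the akr7a3-/- eye 5 was the only one of its group within the akr7a3+/+ range.

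Marker genes of other cell types that a dissected eye can hold also differed in level between the eyes, and their part in the muscle result was not tested. The summed lens markers were 9171 to 17576 FPKM in the akr7a3+/+ eyes and 812 to 15175 FPKM in the akr7a3-/- eyes. Of the 23 tested lens genes, 23 were below 0 with a median log2 fold change of −1.38, and 0 were called by limma or voom, although 6 were lower at an unadjusted p under 0.05. The lowest lens sum, 812 FPKM, was that of the akr7a3-/- eye 1. The akr7a3-/- eyes 7 and 9, at 5370 and 5894 FPKM, also lay below all akr7a3+/+ eyes. Without eye 1, 26 of the 29 called muscle members were still called. This does not test the part of the lens, since eyes 7 and 9 remain. The akr7a3+/+ eye 3, highest in many muscle genes, also had the highest lens sum and the lowest sums of red cell and cartilage markers, 185 and 45.0 FPKM.

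Rod and cone markers summed to 30066 to 44458 FPKM in the akr7a3+/+ eyes and 45422 to 52193 FPKM in the akr7a3-/- eyes, without overlap. Of the 24 genes, 6 were called higher and 5 lower, a share of 45.8%. That is above the 37.2% of the muscle members and the 11.5% of all genes tested. Red cell markers summed to 185 to 1497 and 965 to 1856 FPKM, with 1 of 10 called higher. Skin and cornea markers summed to 3042 to 5470 and 3309 to 5366 FPKM, with 3 of 15 called higher. In both lists the ranges of the genotypes overlapped, as they did in those that follow. Cartilage and bone markers summed to 45.0 to 181 and 114 to 223 FPKM, with 2 of 13 called higher and 1 lower. Smooth muscle and pericyte markers other than members summed to 161 to 198 and 178 to 210.3 FPKM, with 1 of 9 called lower. Beside these counts, 5.78% of all genes tested were called higher and 5.77% lower. No marker row was at 0 in every eye.

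The called members rested on 13 to 19503 reads in an eye, fewest in myoz2a and most in actc1b. They lie on 15 chromosomes by a table of the assembly GRCz12tu, used only for the chromosome. The chromosome of akr7a3, chromosome 11, holds 2 of the 96 members, myh7ba and myom2a, and both were called lower. Whether neighbours carried along with the mutation played a part in these 2 was not tested.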

How the data were processed

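RNA from 12 adult zebrafish eyes was sequenced from strand-specific polyA libraries on DNBSEQ. The authors aligned the reads to GRCz11 (HISAT2), summarised them per gene (featureCounts 2.0.3) and deposited FPKM for each gene and eye. The annotation release, the strand setting and the treatment of reads that match several genes are not given in the sources used here. Genotypes were taken from the labels. The deposited columns name akr7a3-/- eyes with the letter h.

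Members were matched by name and classed as fast, slow, cardiac, smooth muscle or non-muscle, or shared by symbol. The members, classes and lists were chosen with earlier results of these data known. limma 3.58.1 in R 4.3.3 was fitted with a variance trend and the genotype alone to log2(FPKM + 0.5) of the 18473 genes that reached 0.5 FPKM in 6 eyes or more, with Benjamini-Hochberg adjustment over all of them, and was tested on simulated data. Single genes were compared by two-sided exact permutation over the 924 splits of 6 against 6.

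Whole reads were recovered from the steps of the low FPKM values for 25431 of 25432 genes (tolerance 0.05 reads) and gave totals of 21194609 to 35016388 per eye. They are reads and not molecules. Members named with full values were the 15 largest called changes with a mean of at least 1 FPKM, the most abundant of each class, and the 3 largest and 3 smallest fold changes. For the lists they were the called genes, or the 5 largest changes, and the 2 most abundant. Other genes named were chosen after their values were seen. The alternatives were pseudocounts of 0.1 and 1, no filter, median-of-ratios scaling, quantile normalization, voom on the recovered reads, a block on shared replicate numbers, and each eye left out. Gene sequences are not shown here.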

Additional observations from a re-analysis of the deposited data

Results flagged for a closer look

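Among 64 sets of 6 eyes examined (the named members and the class sums in each genotype), 5 had an eye that stood apart by Dixon's 95% limit. Chance alone gives about 1 in 20 for independent sets of normally spread values. The limit was applied to FPKM without a log scale, and the class sums contain named members. The sets are therefore not independent, and the 5 cannot be weighed against that rate. The fast myosin heavy chain myhz2 was high in the akr7a3+/+ eye 3, at 73.7 FPKM where the other 5 eyes had 17.1 to 31.8. desma was high in the akr7a3+/+ eye 1, at 25.9 FPKM beside 14.7 to 17.9. myl12.1 was high in the same eye, at 140.9 FPKM beside 107 to 117 FPKM, and so was the sum of the smooth muscle and non-muscle genes, at 230.4 FPKM beside 202 to 209. myh11b was high in the akr7a3-/- eye 9, at 2.45 FPKM beside 1.597 to 1.89. That eye is on the far side from the other genotype, so the ranges of myh11b do not meet without it.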

How the results depend on the processing

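All 29 called members kept their direction in each of the 19 alternatives in which they were fitted. They were picked by their calls on the same eyes, so a change of direction was unlikely from the start. They include myoz2a and smyhc1, which passed the filter only through their akr7a3+/+ eyes and had to differ. The number still called was 29 with pseudocounts of 0.1 and 1 and with median-of-ratios scaling, and 28 with no filter, quantile normalization or voom on the recovered reads. With single eyes left out, the number of members changed ran from 24 to 33, of fast genes from 7 to 14, of slow genes from 4 to 7, and of the list genes from 20 to 32. The members tested in these fits ran from 74 to 78. Over all genes, the number called ran from 1518 of 18374 (without the akr7a3-/- eye 8) to 2032 of 18345 (without the akr7a3+/+ eye 6). The slow number was 4 of 14 tested without the akr7a3+/+ eyes 2, 3 or 7. In these fits myoz2a and smyhc1 miss the filter, and without those genes the main fit called 5 of 14. myl12.2 turned from −0.033 to 0.0048 without the akr7a3+/+ eye 7 and to 0.051 without the akr7a3-/- eye 9, with −0.11 the lowest over single eyes left out, and the cause was not tested. mylpfa was not called with quantile normalization (−0.39, adjusted p = 0.0582 from limma). Genes near the filter rest on few reads and are measured with less precision.

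The genotypes share the numbers 1, 4 and 7. Deviations of same-numbered eyes from their group means correlated at 0.085, −0.20 and 0.069 across genes, so the numbers were not taken to pair the eyes. With a replicate block on them, 30 members were called, of which 27 are among the 29, with 12 fast genes, 7 slow genes and 21 list genes. In that fit 1924 of all 18473 genes tested were called.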

Other observations

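Some members varied more among eyes of one genotype than between the genotypes. The fast myosin-binding protein mybpc2a had 24.6 FPKM in the akr7a3+/+ eye 4 and 12.3 FPKM in the akr7a3-/- eye 9, and 2.75 to 6.67 FPKM in the other 10 eyes. Its copy mybpc2b had 5.88 FPKM in the akr7a3+/+ eye 1 and at most 1.998 FPKM elsewhere. The actin actc1c had 5.67 FPKM in the akr7a3-/- eye 1, the eye with the lowest lens sum, and at most 2.07 FPKM elsewhere. In that eye myl13 and myl10, at 18.5 and 12.6 FPKM, were also the highest of their genotype. None of these genes was called.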
